A study of Rattus norvegicus with 32 samples.

Results

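The genes described here encode proteins of the large, or 60S, subunit of the cytoplasmic ribosome. They were chosen by symbol: 45 genes from Rpl3 to Rplp2 were sought, and all 45 were among the 17216 gene rows of the deposited tables. Each ribosome needs its large subunit proteins in fixed proportion, most of them in a single copy, and the subunit carries the peptidyl transferase centre, the tunnel through which the new chain leaves and the stalk that recruits elongation factors. Their mRNAs are abundant in growing cells, and many begin with a run of pyrimidines that lets the cell raise or lower their translation as a set. Ribosomes work in dendrites as well as in the cell body, where they translate localised mRNAs near synapses, and mRNAs of ribosomal proteins have been found in neuronal processes.

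Hippocampal neurons of wildtype Sprague Dawley rats, dissociated at embryonic day 18, had been kept in culture for 15 days. From each of 16 single neurons, labelled pyramidal, the soma and the dendrites were drawn into separate pipettes, which gave 16 soma and 16 dendrite libraries paired by the number in their labels. Both groups share this genotype, age and culture time, and are labelled as differing in the compartment. Several cultures and days contributed, and the culture and day of a given neuron are not given in the sources used here. The RNA had passed through 3 rounds of amplification by in vitro transcription, which starts from the poly(A) tail.

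Soma libraries held between 878125 and 24721811 gene counts, and dendrite libraries between 229149 and 24439768. Of these, between 15891 and 382518 counts per soma library and between 6565 and 631811 per dendrite library belonged to the 45 genes. Neurod6, a marker of pyramidal neurons, had counts in all 32 libraries, from 47.1 to 4578 counts per 1000000 gene counts (CPM) in soma and from 5.11 to 3767 CPM in dendrites. Of 15 pyramidal markers listed, 14 were among the rows and 9 were high enough to be tested. The summed level of the 14 ranged from 232 to 14870 CPM in soma (median 2531) and from 45.3 to 8022 CPM in dendrites (median 1974). Of 17 inhibitory markers listed, 15 were among the rows, with a summed level from 0.0440 to 18243 CPM in soma (median 180). In dendrites it ranged from 10.9 to 5617 CPM (median 373). Gad1, which makes the inhibitory transmitter GABA, went against the pyramidal label in some libraries. It exceeded 100 CPM in 5 soma libraries, those of neurons 7, 8, 9, 25 and 28, and reached 11161 CPM in neuron 8. In these, Neurod6 lay above Gad1 in neurons 7, 9, 25 and 28, and below it in neuron 8, at 61.8 CPM. Gad1 also exceeded 100 CPM in 5 dendrite libraries, of neurons 7, 8, 13, 15 and 18, and lay above Neurod6 in these except in neuron 13. Below the cut, Gad1 stood at 39.1 and 99.8 CPM in the soma of neurons 13 and 18. In the dendrites of neurons 9, 25 and 28 it stood at 56.0, 48.0 and 48.8 CPM. In neuron 15 it stood at 0 CPM in soma and at 923 CPM in dendrites. What this means for the pairing of these neurons was not tested. Of the astrocyte markers, 16 of 19 were among the rows, and their summed level ranged from 66.3 to 839 CPM in soma (median 360) and from 120 to 3534 CPM in dendrites (median 646). The defining astrocyte genes Gfap and Aqp4 were at 0 counts in 12 and 13 soma libraries and in 6 and 8 dendrite libraries. Summed microglia markers did not exceed 27.9 CPM in any library. The part of glial RNA in the results on the ribosomal genes was not tested.

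Libraries of 4 neurons stand apart for these genes and are named before the results. In neuron 20 the dendrite library held 7.66% of its gene counts in the 45 genes, the highest value of the 32 libraries. It also had the lowest Neurod6 level. Neurons 7, 8 and 9 had an uneven share of Rpl23, described below. It was high in the soma but not the dendrites of neuron 7, and in the dendrites but not the soma of neuron 9. The Rpl23 share also differed between compartments in neuron 14 (8.04% in soma, 0.786% in dendrites) and in neuron 28 (0.741% and 6.94%). Whether the numbers of neurons 7, 8 and 9 pair the right libraries was not tested, and each paired value below follows the labels.

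To show what the mRNAs of the subunit share outside their counts, the start sites of the genes were read from the RefSeq promoter table of assembly GRCr8, which holds 38 of the 45. Rpl7, Rpl8, Rpl15, Rpl23a, Rpl27, Rpl30 and Rpl32 had no entry. An annotated transcript that began with C followed by at least 4 pyrimidines was found for 17 of 38 genes (44.7%), against 2.63% of 33469 rat promoters and 7 of 27 small subunit genes (25.9%). The hexamer CTTTCC was searched on both strands between 20 bases before and 30 bases after the start. The hexamer CTCTTT was searched in the same way, as was the hexamer CTTTTC, and matches of the different hexamers can overlap. At least 1 of them occurred on the sense strand in 22 of 38 genes (57.9%), against 5.46% of all promoters, and on either strand in 24 (63.2%) against 10.7%. The hexamers were chosen after the windows had been seen, and a match describes the letters only. The windows below are those of genes on which the results turn. Each runs from 5 bases before the annotated start, so that the sixth base is the first of the transcript, and capitals mark the hexamers on the sense strand. Rpl23 (chr10:83272160-83272189, minus strand) had the highest mean level. Rplp1 (chr8:71290848-71290877, minus strand), Rpl12 (chr3:36661935-36661964, plus strand) and Rplp0 (chr12:46718366-46718395, minus strand) encode the stalk. Rpl10a (chr20:6390528-6390557, plus strand) and Rpl35a (chr11:81234997-81235026, minus strand) had the lowest fold changes. Rpl13a (chr1:104748889-104748918, minus strand) had the smallest p-value.
Rpl23: tttctgaCTCTTTCCggacgctcaagatgt
Rplp1: gtgatcCTTTCCtcagctgccgccaaggtg
Rpl12: ccgtCTTTTCggctttcggttcggaggagg
Rplp0: cacttctctcgccaggcgtcctcattagag
Rpl10a: gccttCTTTTCcggttcccgcagccgcagc
Rpl35a: ccttcCTCTTTCCgccatcttggcgtcttt
Rpl13a: tcctaggcggctgccgaagatggcggaggg
Genes with a pyrimidine start were thus found at both ends of the fold changes given below. Over the 16 tested genes with such a start, the median log2 fold change of dendrites over soma was 0.45, and over the 21 tested genes with another annotated start it was 0.57.

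The large subunit took up a small and variable share of each library. In soma, the 45 genes held 1.40% ± 0.485 of gene counts (SD, n = 16), with a lowest value of 0.644%, a median of 1.25% and a highest of 2.60%. In dendrites, they held 2.12% ± 1.56 (SD, n = 16), with a lowest value of 1.13%, a median of 1.73% and a highest of 7.66%. The compartments overlapped between 1.13% and 2.60%. The share was higher in the dendrites than in the soma of the same neuron in 13 of 16 neurons. The mean log2 ratio of the shares was 0.48 ± 0.94 (SD, n = 16), less than its spread between neurons. Neurons 9, 11 and 18 went the other way. The 13 include neurons 7 and 8, and the pairing of neurons 7, 8 and 9 was not tested, as stated above. Neuron 11 went from 2.60% in soma to 1.15% in dendrites. Neurons with a high share in soma did not tend to have a high share in dendrites: over the 16 neurons, the Spearman correlation was -0.29, given as a description.

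**Figure D1:**
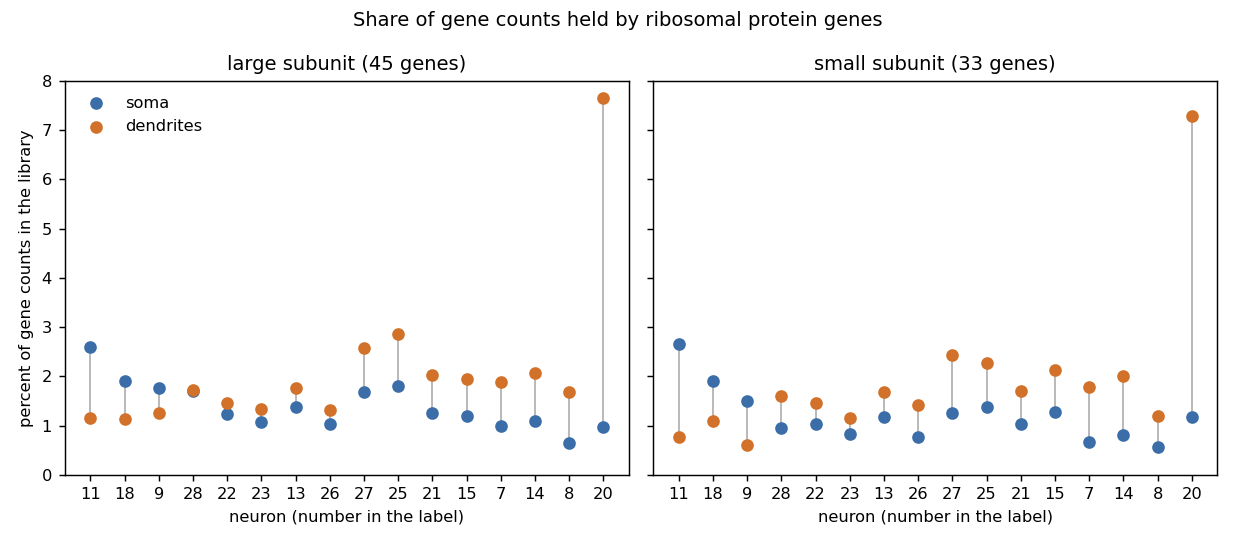
Percent of gene counts held by the 45 large subunit genes (left) and 33 small subunit genes (right) in the soma (blue) and dendrites (orange) of each of 16 neurons, ordered by the change in the large subunit share. Grey lines join the libraries of 1 neuron, and the dendrites of neuron 20 stand apart at 7.66% and 7.29%.

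The dendrites of neuron 20 carried much of the mean difference. Its large subunit share went from 0.971% in soma (95% exact Clopper-Pearson interval 0.963 to 0.978) to 7.66% in dendrites (7.63 to 7.68), a 7.89-fold ratio. These intervals cover counting error only, since amplified reads without molecular identifiers are not independent molecules. Without neuron 20, the shares were 1.42% ± 0.488 in soma and 1.75% ± 0.508 in dendrites, and the mean log2 ratio was 0.32 ± 0.68 (SD, n = 15). The dendrite library of that neuron was also the one with Neurod6 at 5.11 CPM, and the part of its composition in the result was not tested.

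The small subunit was high where the large one was high. Its 33 genes held 1.19% ± 0.519 of gene counts in soma and 1.91% ± 1.52 in dendrites (SD, n = 16), and 7.29% in the dendrites of neuron 20. The large and small subunit shares had a Spearman correlation of 0.80 over the 16 soma libraries and 0.956 over the 16 dendrite libraries, which share library composition. Counts of the large over the small subunit were 1.22 ± 0.234 in soma and 1.17 ± 0.285 in dendrites (SD between libraries, n = 16). Within neurons, this ratio was lower in dendrites in 11 of 16, and the paired difference was not tested.

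The genes of the subunit were detected in both compartments with few exceptions. With each library thinned to 200000 gene counts, 42.5 ± 1.15 of the 45 genes had a count in soma and 43.3 ± 0.873 in dendrites (SD, n = 16). Without thinning the mean was 44.6 in either compartment. At least 10 counts in every one of the 32 libraries were found for 35 genes. The scarcest was Rpl37a, whose protein holds a zinc finger: it reached 10 counts in 4 soma and 2 dendrite libraries, stood at 0.878 ± 1.58 CPM in soma and 0.825 ± 1.94 CPM in dendrites, and did not pass the filter for testing. A row for its named copy Rpl37a-ps1 stood at 2.25 ± 2.74 CPM in soma and at 3.45 ± 3.00 CPM in dendrites (SD, n = 16). RefSeq names 473 pseudogenes of the 45 genes, with a median of 11 per gene and a highest of 27, for Rpl9. How reads that match several copies were treated is not given in the sources used here, which leaves the level of every gene uncertain to that extent. Over the 45 genes, the number of named pseudogenes and the mean level had a Spearman correlation of -0.02, as a description across genes.

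The order of the genes was much the same in both compartments. These levels are CPM, not divided by transcript length, because no lengths were used here, so the order is one of counts and not of molecules. Across the 45 genes, which are not independent replicates, mean CPM in one compartment and in the other correlated with a Spearman rho of 0.974. Both compartments had 9 of their 10 highest genes in common and 9 of their 10 lowest. Among the 44 tested genes, the highest mean was 182 times the lowest. Within 1 neuron, the order in soma and dendrites had a mean Spearman correlation of 0.757 (0.626 to 0.911 over 16 neurons). Soma and dendrites of different neurons gave nearly the same value, 0.751 over 240 pairs, as did pairs of soma libraries (0.738) and pairs of dendrite libraries (0.756, each over 120 pairs).

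**Figure D2:**
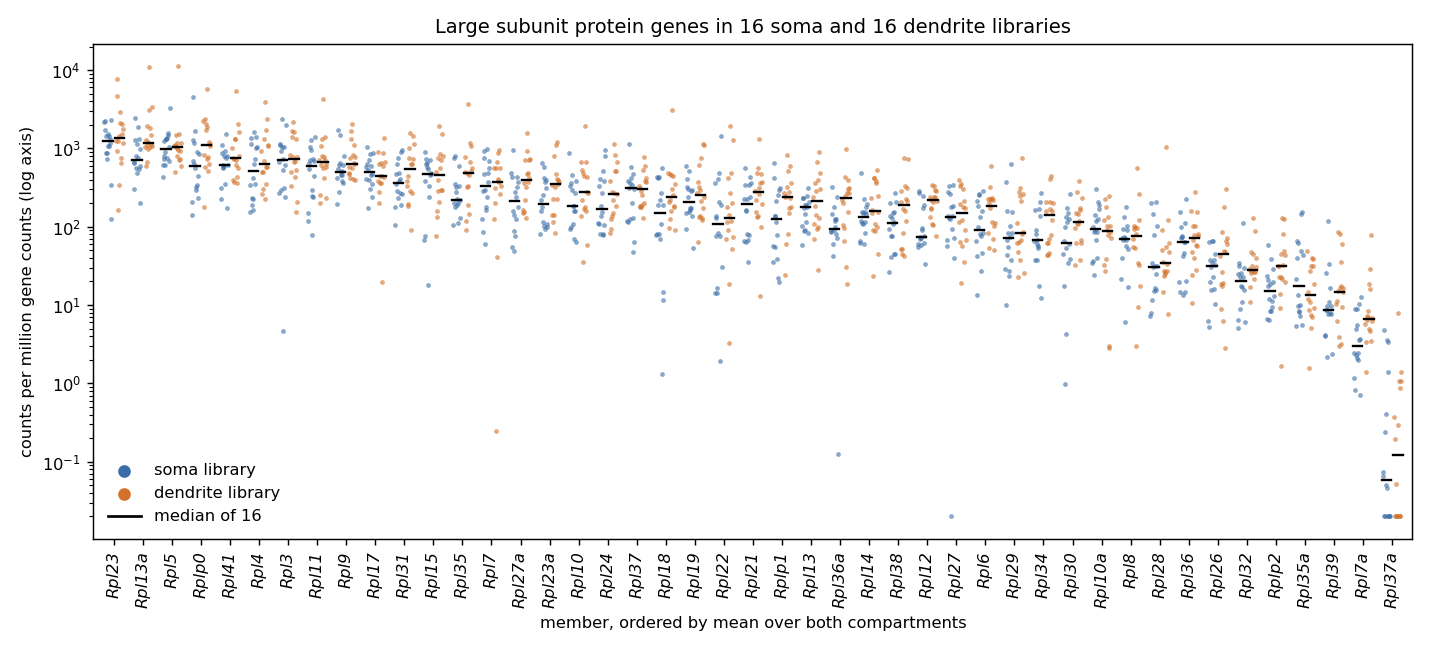
CPM (log axis) of each large subunit gene in 16 soma (blue) and 16 dendrite (orange) libraries, ordered by the mean over both compartments. Black bars are medians, a count of 0 is drawn at the foot of the axis, and the order runs from Rpl23 to Rpl37a with wide overlap between neighbours and between compartments.

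Rpl23, which sits at the face where both subunits meet, had the highest mean level, and in single libraries it reached the highest share of the subunit's counts of any gene. Its lowest, median and highest levels were 126, 1245 and 2300 CPM in soma and 163, 1344 and 7659 CPM in dendrites. The compartments overlapped, with a mean of 1278 ± 633 CPM in soma against 1913 ± 1877 CPM in dendrites (SD, n = 16). Of all large subunit counts, it took 22.1% in the soma of neuron 7, 34.7% in the soma of neuron 8, 45.3% in the dendrites of neuron 8 and 37.0% in the dendrites of neuron 9. These were the only 4 of 32 libraries in which Rpl23 exceeded 20% of the subunit's counts. The other libraries of neurons 7 and 9 were near the rest, at 6.59% in the dendrites of neuron 7 and 9.67% in the soma of neuron 9. In the remaining 13 neurons the share of Rpl23 ranged from 0.741% to 13.6% in soma (median 8.04%) and from 0.786% to 11.7% in dendrites (median 6.94%). Without neurons 7, 8 and 9 its mean was 1101 ± 552 CPM in soma and 1312 ± 774 CPM in dendrites. The highest share of any other gene in a library was 19.4%, for Rpl5.

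**Figure D3:**
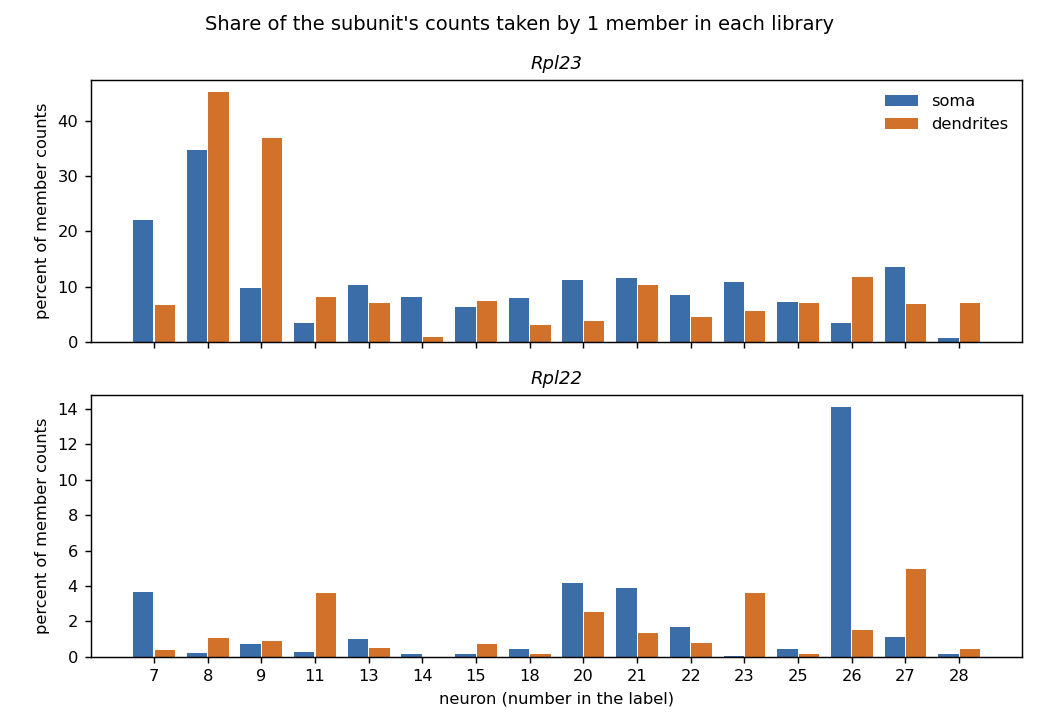
Percent of the summed large subunit counts taken by Rpl23 (top) and Rpl22 (bottom) in the soma (blue bars) and dendrites (orange bars) of each of 16 neurons, with 1 library per bar. Rpl23 exceeds 20% in 4 libraries of neurons 7, 8 and 9, and Rpl22 reaches 14.1% in the soma of neuron 26.

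The next places were held by genes of several parts of the ribosome. Rpl13a, whose protein is also known for silencing inflammatory mRNAs, had a lowest, median and highest level of 202, 710 and 2453 CPM in soma and of 599, 1173 and 10950 CPM in dendrites, the last in neuron 20. Rpl5, which carries the 5S ribosomal RNA, had 434, 969 and 3304 CPM in soma and 506, 1029 and 11119 CPM in dendrites. Its medians were close and its high value again came from the dendrites of neuron 20. Rpl41, the smallest ribosomal protein, had a mean of 679 ± 347 CPM in soma, and in dendrites of 1153 ± 1223 CPM (SD, n = 16). Neighbours in this order did not differ beyond their spread: Rpl23, Rpl13a, Rpl5, Rplp0 and Rpl41 all had SDs larger than the gap to the next mean. The leading gene of a library was Rpl23 in 9 of 32 libraries, Rplp0 in 6, Rpl5 in 6, Rpl3 in 4, Rpl13a in 4, Rpl4 in 2 and Rpl22 in 1. The 5 highest genes of a library together held 43.7% ± 6.27 of the subunit's counts in soma and 42.6% ± 9.14 in dendrites (SD, n = 16).

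At the low end stood Rplp2, Rpl35a, Rpl39, Rpl7a and Rpl37a. Rpl39, a short protein at the exit tunnel, had a lowest, median and highest level of 2.18, 8.70 and 117 CPM in soma and of 3.00, 14.8 and 86.4 CPM in dendrites. Rpl7a had 0.720, 3.00 and 12.7 CPM in soma and 1.41, 6.60 and 78.6 CPM in dendrites. Both genes overlapped between compartments. RefSeq names 19 pseudogenes of Rpl7a and 6 of Rpl23, although the medians were 11 for the 10 lowest genes and 9.5 for the 10 highest.

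Some genes varied far more between neurons than others. Over the tested genes of the subunit, the median SD of log2 CPM was 1.20 in soma and 1.26 in dendrites, against 3.45 and 3.13 over the 4916 genes tested. These sets were not matched in level. At least 10 counts in at least 28 libraries were reached by 44 genes of the subunit and by 1538 genes in all. The part of level in the lower SD was not tested. Rpl13, Rpl17 and Rpl5 were the least variable in soma, with SDs of 0.69, 0.69 and 0.71. Rpl12, Rpl9 and Rpl37 were the least variable in dendrites, with SDs of 0.63, 0.73 and 0.73. The most variable were Rpl22, Rpl27 and Rpl18 in soma (2.40, 2.36 and 2.30) and Rpl7, Rpl22 and Rpl10a in dendrites (2.69, 2.20 and 1.80). Single libraries were far from the rest in these genes. Rpl27 had 0 counts in the soma of neuron 20 and a soma median of 132 CPM, and Rpl7 stood at 0.243 CPM in the dendrites of neuron 14 and at a dendrite median of 378 CPM. Rpl18 stood at 1.33 CPM in the soma of neuron 23 and at a soma median of 149 CPM.

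Rpl22, a protein that cells can do without and whose paralog Rpl22l1 can take its place, was the gene with the widest spread in soma. Its lowest, median and highest levels were 1.93, 107 and 1444 CPM in soma and 3.24, 130 and 1916 CPM in dendrites. It led the subunit in the soma of neuron 26, with 14.1% of the subunit's counts (95% exact interval 13.8 to 14.4). In 7 of 16 neurons its level in dendrites exceeded that in soma. Rpl22l1 stood at 93.0 ± 95.7 CPM in soma and at 108 ± 131 CPM in dendrites (SD, n = 16).

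Levels of the genes tended to go up and down together across neurons, weakly. Between pairs of tested genes of the subunit, the median Spearman correlation of log2 CPM was 0.24 over soma libraries and 0.31 over dendrite libraries, and 80.9% and 86.6% of 946 pairs were positive. Over all tested genes, which were not matched in level, the medians were 0.08 and 0.12. For differences between the compartments of 1 neuron, the median was 0.29, and 0.24 without neuron 20. All these values share library depth and composition and are given as a description.

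The main comparison asked which of these mRNAs differ in relative abundance between the dendrites and the soma of a neuron. The tested genes of the subunit had mostly positive fold changes, and none was distinguishable from the spread between neurons after adjustment. In edgeR's quasi-likelihood test with Benjamini-Hochberg adjustment over 4916 genes, 0 of 44 genes had an adjusted p under 0.05, as did 0% of all genes tested. A positive log2 fold change was found for 40 of 44, against 54.8% of all genes. The median was 0.49 against 0.13 over all genes, with a range from -0.53 for Rpl10a to 1.29 for Rpl7a. Unadjusted p-values under 0.05 were found for 2 genes of the subunit, both higher in dendrites, where 1.75% of all genes had one in that direction. DESeq2 called 1, Rpl12, where it called 8.2% of all genes, and limma-voom called 0. The median was 0.34 and the number of positive genes 35 without neuron 20, and 0.43 and 36 without neurons 7, 8 and 9.

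**Figure D4:**
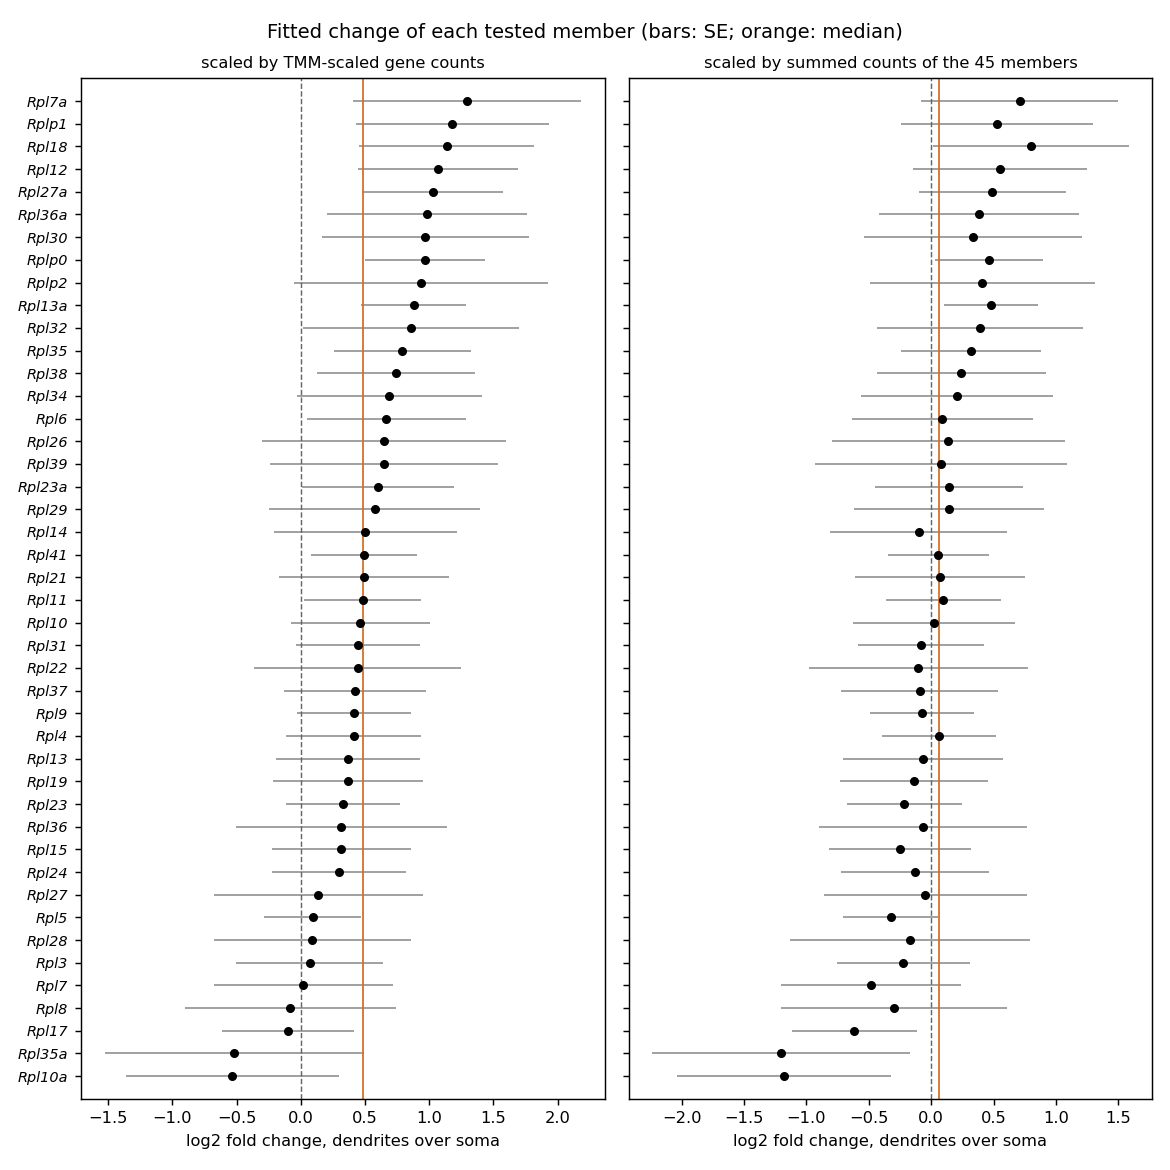
Log2 fold change of dendrites over soma (points) with its SE (bars) for each of 44 tested genes, scaled by TMM-scaled gene counts (left) and by the summed counts of the 45 genes (right). Orange lines mark the medians of 0.49 and 0.06, and most bars on the right cross 0.

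The size and sign of the common shift differed between neurons. The median difference in log2 CPM over the 44 genes was positive in 13 of 16 neurons, with a mean of 0.48 ± 1.05 (SD, n = 16). The number of genes higher in dendrites was 41 of 44 in neuron 20, 40 in neuron 7 and 38 in each of neurons 8 and 21. It was 7 in neuron 9, 9 in neuron 18 and 13 in neuron 11. In neurons 13 and 22 it was 24 and 23, close to an even split. In 10 of 16 neurons the median of the genes lay above the median of all tested genes, which itself ranged from -1.61 to 2.47 between neurons. Neuron 11 had the lowest median of the subunit, -1.45, and 62.7% of all tested genes higher in dendrites. Neuron 14 had a median of 0.96 for the subunit and -1.61 for all genes.

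**Figure D5:**
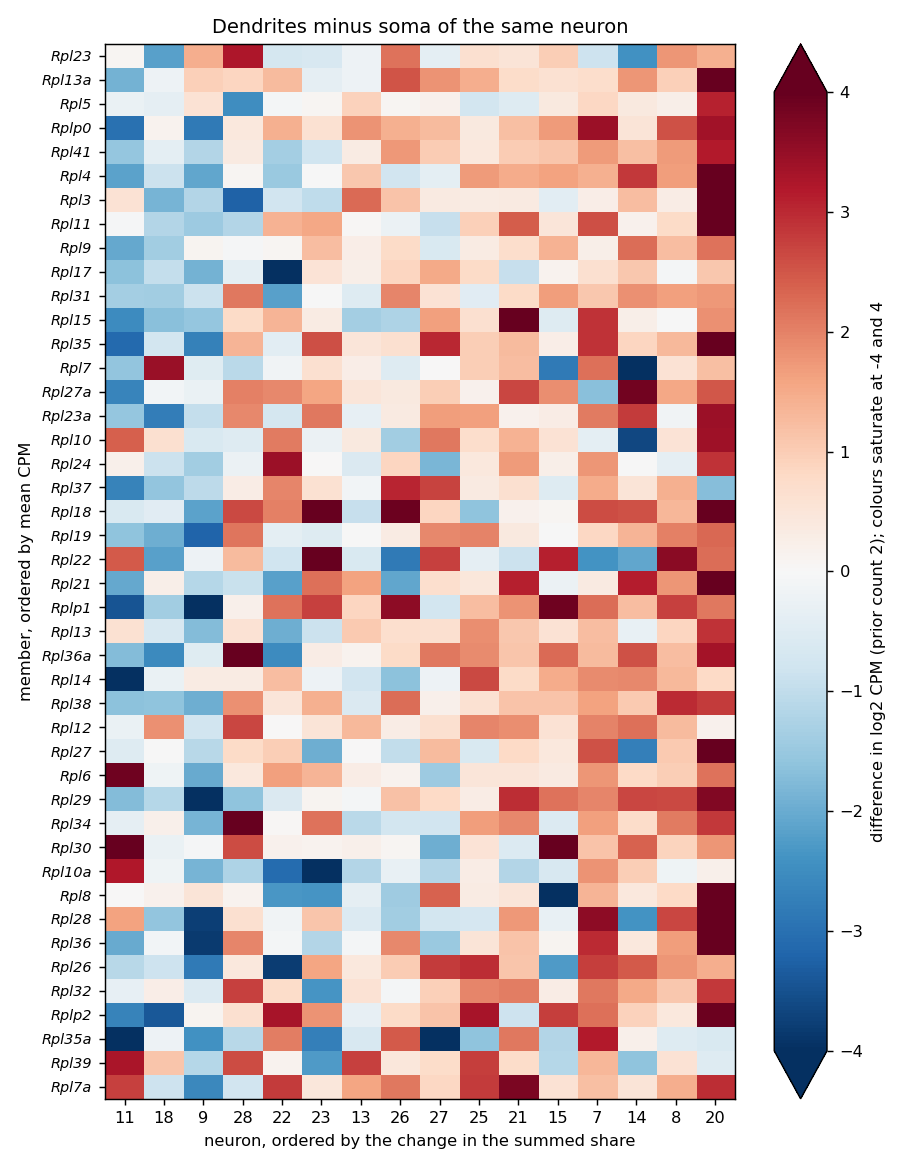
Difference in log2 CPM, dendrites minus soma of the same neuron (colour, prior count 2), for 44 tested genes in order of level (rows) and 16 neurons in order of the change in the summed share (columns). Columns 9, 11 and 18 are mostly blue, column 20 is mostly red, and single genes depart from their column in nearly every neuron.

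The 4 stalk proteins, which recruit the elongation factors to the ribosome, all had fold changes above the median of the subunit, from 0.94 to 1.18. Rplp0, the scaffold of the stalk, had a lowest, median and highest level of 142, 595 and 4527 CPM in soma and of 178, 1117 and 5784 CPM in dendrites. The compartments overlapped, and dendrites were higher in 14 of 16 neurons, all but 9 and 11. Its log2 fold change was 0.96 ± 0.47 (SE), with p = 0.0493 unadjusted and 0.999 adjusted in edgeR's quasi-likelihood test. Rpl12, at the base of the stalk, had 33.9, 74.9 and 286 CPM in soma and 76.2, 219 and 338 CPM in dendrites. It too was higher in dendrites in 14 of 16 neurons, all but 9 and 11, in log2 CPM with a prior count of 2. In neuron 22 it differed by only 0.01 on this scale, while its plain CPM was 243.5 in soma and 242.7 in dendrites. Its log2 fold change was 1.07 ± 0.63 (SE) with an adjusted p of 0.999 in edgeR's quasi-likelihood test, and 1.13 with an adjusted p of 0.0258 in DESeq2. Over the other settings tried, its adjusted p ranged from 0.780 to 1. Leaving out each neuron in turn, the edgeR value ranged from 0.90 to 1.28. Rplp1, an acidic stalk protein, had 19.4, 126 and 651 CPM in soma and 23.9, 242 and 828 CPM in dendrites, with a log2 fold change of 1.18 ± 0.75 (SE). Its differences ran from -4.13 in neuron 9 to 3.90 in neuron 15. Its partner Rplp2 was far lower in counts, at 19.0 ± 13.9 CPM in soma and at 42.7 ± 38.5 CPM in dendrites (SD, n = 16), with a log2 fold change of 0.94 ± 0.99 (SE). Both were higher in dendrites in 12 of 16 neurons. At least 12 of 16 neurons higher in dendrites was reached by 14 of 44 genes of the subunit and by 7.18% of all tested genes.

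Rpl5 and Rpl11, which hold the 5S ribosomal RNA and when free bind the p53 regulator Mdm2, had fold changes at or below the median of the subunit. For Rpl5, whose values are given above, the log2 fold change was 0.09 ± 0.38 (SE), with 10 of 16 neurons higher in dendrites. It turned to -0.04 without neuron 20, and to -0.04 without neurons 7, 8 and 9. For Rpl11 the lowest, median and highest levels were 79.5, 593 and 1403 CPM in soma and 200, 663 and 4229 CPM in dendrites, and the compartments overlapped. Its log2 fold change was 0.48 ± 0.46 (SE).

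Rpl13a had the smallest p-value of the subunit. Dendrites were higher in 12 of 16 neurons, with differences from -1.89 in neuron 11 to 4.48 in neuron 20. The log2 fold change was 0.88 ± 0.41 (SE), with p = 0.0398 unadjusted and 0.999 adjusted in edgeR's quasi-likelihood test. Leaving out each neuron in turn gave values from 0.73 to 1.14. Rpl27a had 49.7, 211 and 957 CPM in soma and 131, 395 and 1563 CPM in dendrites as lowest, median and highest. In 12 of 16 neurons the dendrite value exceeded that of the soma. Its log2 fold change was 1.03 ± 0.55 (SE). Rpl18 had a log2 fold change of 1.14 ± 0.68 (SE), with a difference of 7.47 in neuron 23, whose soma level was the low one named above. Rpl7a had the highest log2 fold change, 1.29 ± 0.89 (SE), at the low levels given above. Its dendrite level was the higher one in 13 of 16 neurons.

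Negative fold changes were found for 4 genes. Rpl10a forms the L1 stalk, which helps the spent tRNA to leave. Its lowest, median and highest levels were 24.0, 94.7 and 305 CPM in soma and 2.80, 87.5 and 249 CPM in dendrites. The compartments overlapped, and dendrites were higher in 5 of 16 neurons. Its log2 fold change was -0.53 ± 0.83 (SE). Rpl35a, mutated in some patients with Diamond-Blackfan anaemia, had 5.33, 17.4 and 153 CPM in soma and 1.55, 13.4 and 49.3 CPM in dendrites. It was also higher in dendrites in 5 of 16 neurons, with a log2 fold change of -0.52 ± 1.01 (SE). For Rpl17, part of the tunnel wall, the log2 fold change was -0.10 ± 0.51 (SE), and for Rpl8 -0.08 ± 0.82 (SE). The sign of the Rpl17 value turned without neuron 11 and without neuron 22, to 0.10 in either case. The sign of the Rpl8 value turned to 0.02 with library totals and to 0.13 with spike-in totals as the scale.

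The other genes chosen by role lay between these ends. Rpl10, a late addition next to the peptidyl transferase centre, had a log2 fold change of 0.46 ± 0.54 (SE). Rpl24, which forms a bridge between the subunits, had 0.30 ± 0.52 (SE), and Rpl23 at the same face had 0.33 ± 0.44 (SE). Rpl38, known for its part in Hox mRNA translation during skeletal patterning, had 0.74 ± 0.62 (SE), with 117 ± 68.6 CPM in soma against 236 ± 218 CPM in dendrites (SD, n = 16). Rpl36a, near the exit site for tRNA, had 0.98 ± 0.78 (SE). Its highest level was 320 CPM in soma and 984 CPM in dendrites, and its lowest soma value was 0.126 CPM, in neuron 28. Rpl39 had 0.65 ± 0.89 (SE), Rpl41 had 0.49 ± 0.41 (SE), and Rpl22 had 0.44 ± 0.80 (SE). None of them had an adjusted p under 0.05 in edgeR's quasi-likelihood test.

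To ask which genes depart from the common shift, the same model was fitted with the summed counts of the 45 genes as the library size. In edgeR's quasi-likelihood test on this scale, 0 of 44 genes had an adjusted p under 0.05, against 0% of all tested genes, and none had an unadjusted p under 0.05, the smallest being 0.179. Positive values were found for 24 genes and negative values for 20, against 38% positive over all genes, and the median was 0.06 against -0.32 over all genes. The value was smaller than its SE in 38 of 44 genes, which only restates an F statistic under 1. The 6 others were Rpl18, at 0.80 ± 0.78 (SE), Rpl13a, at 0.48 ± 0.38 (SE), Rplp0, at 0.46 ± 0.43 (SE), Rpl17, at -0.62 ± 0.50 (SE), Rpl10a, at -1.18 ± 0.86 (SE), and Rpl35a, at -1.20 ± 1.03 (SE). Rpl7a stood at 0.71 ± 0.79 (SE), Rpl27a at 0.49 ± 0.59 (SE), Rpl7 at -0.49 ± 0.72 (SE) and Rpl5 at -0.33 ± 0.38 (SE). Of the stalk genes other than Rplp0, Rpl12 stood at 0.55 ± 0.70 (SE), Rplp1 at 0.52 ± 0.77 (SE) and Rplp2 at 0.41 ± 0.90 (SE), each smaller than its SE. The 5 highest genes of a library held on average 43.7% of the summed counts in soma and 42.6% in dendrites. A high share of Rpl23 in 1 library thus lowers every other gene on this scale. With the median of ratios over the genes in place of the sum, the median was 0.01 and Rpl10a and Rpl35a stood at -1.22 and -1.21.

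The SEs describe what these comparisons could show. Each was derived as the absolute log2 fold change divided by the square root of its F statistic. Such an SE is less reliable for a fold change near 0. The SEs ranged from 0.38 to 1.01 over the 44 genes, with a median of 0.62. The median was 1.53 over all tested genes, which were not matched in level. The SE was under 0.5 in 8 genes, namely Rpl5, Rpl13a, Rpl41, Rpl9, Rpl23, Rpl11, Rplp0 and Rpl31.

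The paralogs Rpl36al and Rpl22l1, which are not among the 45 genes, had log2 fold changes of 0.41 ± 1.03 and 0.10 ± 1.04 (SE). Rpl39l was listed at 0 in all soma libraries and had at most 8 counts in a dendrite library. Rpl3l, the muscle form of Rpl3, reached 10 counts in 3 soma libraries and was at 0 in dendrites. Its soma median was 0 CPM and its highest soma value 104 CPM (2369 counts). Among the 33 small subunit genes, 30 had positive and 3 negative log2 fold changes, with a median of 0.61, and 0 had an adjusted p under 0.05 in edgeR's quasi-likelihood test.

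Signs were mixed in the wider machinery of the large subunit. Of mitochondrial large subunit genes, 32 were tested, 18 with positive and 14 with negative log2 fold changes, with a median of 0.41. Mrpl43 had the smallest p of this list, with 6.26 ± 2.37 (SE) and 13 of 16 neurons higher in dendrites. Of genes for large subunit assembly, 26 were tested, 10 positive and 16 negative, with a median of -0.15. Among them, Sbds, which helps to release the anti-association factor from new subunits, had -3.85 ± 2.73 (SE), and the nucleolar GTPase Gnl3 had 2.95 ± 1.85 (SE). Of elongation and joining factors, 14 were tested, 8 positive and 6 negative, with a median of 0.07. Eef1a1, which brings tRNA to the ribosome, had 0.05 ± 0.45 (SE), and Eef2, which moves it along, had 0.35 ± 0.44 (SE). Of the translocon and nascent chain partners, 17 were tested, 7 positive and 10 negative, with a median of -0.10. Of known regulators of ribosomal protein genes or their translation, 7 were tested, 1 positive and 6 negative, with a median of -0.38, among them Cnbp, a binder of pyrimidine-start mRNAs, at -0.75 ± 0.60 (SE). In each of these lists 0 genes had an adjusted p under 0.05 in edgeR's quasi-likelihood test, and their medians are set beside the 0.13 of all tested genes. Markers of astrocytes had a median of 1.47 over 8 tested genes, 7 of them positive, with Apoe at 4.16 ± 1.55 (SE). Markers of endothelial, mural and fibroblast cells had a median of 2.01 over 2 tested genes, the matrix genes Dcn, at 2.38 ± 1.40 (SE), and Sparc, at 1.64 ± 1.38 (SE). The dendrite level of Dcn was the higher one in 13 of 16 neurons. The summed level of the 14 such markers ranged from 0.0879 to 606 CPM in soma (median 8.49) and from 0.260 to 796 CPM in dendrites (median 138). The part of these cell types in the shift of the ribosomal genes was not tested.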

How the data were processed

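The authors deposited whole-number counts per gene for each library, which were used as raw counts. The submitters' processing notes name genome build rn6. The aligner, the annotation, strand handling and the treatment of reads matching several genes are not given in the sources used here. Library sizes left out the 92 spike-in rows. In R 4.3.3, edgeR 4.0.16 was run with filterByExpr by compartment (minimum count 10), TMM, estimateDisp, glmQLFit (robust) and glmQLFTest, with the neuron as a block, since the series text ties 1 soma and 1 dendrite sample to each cell. Benjamini-Hochberg adjustment ran over 4916 genes, with a threshold of 0.05. Differences per neuron and SDs use log2 CPM with a prior count of 2. SEs of edgeR values are the absolute log2 fold change divided by the square root of the F statistic. A second fit used summed counts of the 45 genes as library size. DESeq2 1.42.0 and limma 3.58.1 (voom) were alternatives. Scripts were tested on simulated data.

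Genes named were the 5 highest and 5 lowest in level, up to 5 with the smallest p per direction in each fit, the 3 most and 3 least variable per compartment, those chosen by role, and up to 3 per related list. The genes and lists were chosen with earlier results of these data known. Rpl4, Rpl3 and Rpl6 are named where counts or displays call for them. Some genes that the rule names are left out here.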

Additional observations from a re-analysis of the deposited data

How the results depend on the processing

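Across neurons left out in turn, the median log2 fold change of the 44 genes ranged from 0.34 (without neuron 20) to 0.68 (without neuron 11), 35 to 42 genes were positive, and 0 were called on either scale. The dendrite share ranged from 1.75% to 2.18%, the soma share from 1.32% to 1.45%. Without neurons 20 and 25, added after seeing the data, the median was 0.31, and without neurons 7, 8 and 9, also added, 0.43. With spike-in totals it was 0.47, against -0.05 over all genes, so that scale shifted all genes by more than it shifted these. Without the replicate block, the median was 1.52 with 42 positive genes, 31 had an unadjusted p under 0.05 and 0 were called (smallest adjusted p 0.124 in edgeR's quasi-likelihood test, against 0.0258 with DESeq2 and 0.978 to 1 in the others). On the subunit total the median was then 0.01. The cause was not tested. DESeq2 called 1 gene, Rpl12. Genes detected per library were 44.6 in soma and 44.6 in dendrites without thinning, and 43.9 in soma at 10 or more counts.

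Signs turned in genes whose fold change was small beside its SE, and the cause was not tested. Without the block, Rpl17 stood at 0.44 and Rpl8 at 2.09. With limma-voom, Rpl17 stood at 0.039, Rpl24 at -0.0046, Rpl37 at -0.088, Rpl7 at -0.045 and Rpl8 at 0.30. Rpl7 was -0.029 under the stricter filter, -0.21 without neurons 20 and 25 and -0.23 without neurons 7, 8 and 9, where Rpl27 was -0.071 and Rpl5 -0.038. Rpl8 was 0.022 with library totals and 0.13 with spike-in totals. With neurons left out in turn, Rpl17 ranged from -0.26 to 0.10, Rpl27 from -0.027 to 0.27, Rpl5 from -0.044 to 0.27, Rpl7 from -0.24 to 0.26 and Rpl8 from -0.26 to 0.18. Of the values for named genes, 910 kept their sign and side of the threshold and 31 changed sign. The order per coding length was not run, since no lengths were used here. Rpl37a was too low to test, with at least 10 counts in 4 soma and 2 dendrite libraries.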
